A study of Mus musculus with 12 samples.

Results

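Vessels of white adipose tissue were followed in cold-exposed mice through a panel of 10 endothelial genes, the blood endothelial markers Pecam1, Cdh5, Plvap, Cldn5, Emcn, Esam, Vwf and Eng and the lymphatic endothelial markers Lyve1 and Prox1. They were chosen by symbol, as every probe set of the array annotated to 1 of these 10 genes. A probe set is a group of short oligonucleotides that reads 1 stretch of a transcript. The panel comprised 15 of the 45101 probe sets, 10 for the blood and 5 for the lymphatic markers. A probe set was tested where its signal exceeded log2 4 on at least 3 arrays, which 26510 probe sets did. All 10 blood probe sets passed, as did both of Lyve1, and all 3 of Prox1 did not. Of the 12 that passed, 11 exceeded log2 4 on every array. The other, 1422047_at of Cdh5, passed only through its cold arrays and so had to differ.

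The tissue came from male mice of the C57/BL6 strain, 6 to 8 weeks old per the labels, and was measured on 12 Affymetrix arrays in 4 groups of 3: control and cold at 1 week, and control and cold at 5 weeks. All mice were of 1 strain with no transgene named. They had been housed at 22 °C, and the cold groups spent 1 to 3 weeks at 18 °C before 1 or 5 weeks at 4 °C. The control temperature conflicts between labels (30 °C in titles, room temperature in source names), whether controls also went through 18 °C is not clear, and the depot is not named. Nothing in the labels says that each array had its own animal, so a p-value here reflects only how far these arrays scatter, and that scatter may be technical.

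Blood vessels are lined by endothelial cells, which join through adhesion proteins such as VE-cadherin, set how permeable a capillary is, and exchange fatty acids and oxygen with the adipocytes around them. White fat holds many capillaries, and its vascular bed is known to be remodelled in the cold. Lymphatic vessels are lined by a separate endothelium, specified by the transcription factor PROX1 and carrying the hyaluronan receptor LYVE1, which tissue macrophages can carry as well.

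Promoter sequence was given for 4 of the 10 genes. Eng, Cldn5 and Emcn are shown because all of them were higher after 1 week of cold. Each line gives the 250 bases before the RefSeq transcription start on GRCm38.p6, 5′ to 3′ on the plus strand, with GGAAG and its reverse complement CTTCC in capitals. These letters are a core recognised by ETS factors, a family that includes endothelial regulators such as ERG and FLI1. The windows are chr2:32646345-32646594 for Eng, chr16:18776597-18776846 for Cldn5 and chr3:137340828-137341077 for Emcn.
Eng: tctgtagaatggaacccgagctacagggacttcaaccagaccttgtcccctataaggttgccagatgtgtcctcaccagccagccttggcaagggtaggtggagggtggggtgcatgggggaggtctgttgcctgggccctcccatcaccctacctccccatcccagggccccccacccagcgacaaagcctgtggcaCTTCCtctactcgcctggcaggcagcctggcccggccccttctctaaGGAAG
Cldn5: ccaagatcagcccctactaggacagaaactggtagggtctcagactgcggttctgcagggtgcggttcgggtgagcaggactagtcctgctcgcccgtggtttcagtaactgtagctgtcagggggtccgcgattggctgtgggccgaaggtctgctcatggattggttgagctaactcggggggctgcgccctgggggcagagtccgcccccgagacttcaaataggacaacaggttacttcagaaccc
Emcn: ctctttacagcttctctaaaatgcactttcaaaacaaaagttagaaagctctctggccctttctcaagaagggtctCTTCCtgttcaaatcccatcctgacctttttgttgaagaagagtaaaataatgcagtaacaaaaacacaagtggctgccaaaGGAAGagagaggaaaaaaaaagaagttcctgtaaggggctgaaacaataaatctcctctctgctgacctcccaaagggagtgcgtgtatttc
The letters occurred at 2 places in the Eng window, at 2 in the Emcn window and at 0 in the Cldn5 window. They are common, since 64.1% of 32851 mouse promoter windows of the same length held them on either strand. AACAAT (reverse complement ATTGTT), a SOX-type core, occurred once in the Emcn window and in 9.42% of all windows. GTAAACA (reverse complement TGTTTAC), a forkhead-type core found in 3.17% of windows, was in none of the 3. A match describes letters only.

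Values below are log2 signals, on which a step of 1 is a doubling, and a difference is cold minus control given with the SE (standard error) of the limma fit, for n = 3 arrays a group. A change was called at a Benjamini-Hochberg adjusted p under 0.05 over all probe sets tested. After 1 week of cold, 5 of 10 blood probe sets rose and 0 fell: Plvap, Eng (1417271_a_at), Cldn5, Emcn and Esam. Across all probe sets 17.5% rose and 27.2% fell. In 7 of 10 every cold array lay above every control array, which held for 27.5% of all probe sets, or in 6 of 9 without 1422047_at of Cdh5. The median difference was 0.42 for the blood probe sets, 0.40 without 1422047_at, and -0.04 for all probe sets. Cdh5 and Vwf, which also mark blood endothelium, did not pass the test.

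After 5 weeks the blood markers divided differently. Pecam1, Plvap and Esam fell, 1 of the Eng probe sets (1432176_a_at) rose, and 6 of 10 were not called, beside 12.6% higher and 18.5% lower among all probe sets. In 2 of 10 all cold arrays were above and in 4 of 10 all were below the controls, against 27.1% and 28.5% of all probe sets. Without 1422047_at of Cdh5 these were 1 of 9 and 4 of 9. The median difference was 0.03, and -0.05 without it. The lymphatic marker Lyve1 fell at both durations on its brighter probe set. Fewer endothelial cells and less RNA per cell cannot be told apart in whole tissue.

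Arrays differed in ways the groups do not name, and these values stand beside every result here. The Gapdh 3′ minus 5′ difference, which grows as RNA degrades, was 3.00 and 3.12 on control arrays 2 and 3 of 1 week and 3.01 on cold array 3 of 5 weeks, and between -0.08 and 0.96 elsewhere. The same difference for Actb was 1.84 to 2.80 on the 5 week cold arrays and 1.01 to 1.35 on all others. The mean of 18 skeletal muscle genes was 9.51 on cold array 2 of 1 week, 7.87 to 8.10 on the 5 week controls, and 4.97 to 5.70 on the other arrays. Array medians were 4.79 to 4.89. Adipoq, the adipocyte hormone, was at 14.59 to 14.83 on every array, while a list of 11 white adipocyte genes varied more. Its mean was 12.44 to 13.00 on the 1 week controls and 13.00 to 13.08 on the 1 week cold arrays. At 5 weeks it was 12.97 to 13.06 in controls and 12.66 to 12.93 in the cold. Of the 11, 4 rose and 3 fell at 1 week (17.1% and 30.5% of all genes). At 5 weeks 0 rose and 2 fell (13.9% and 19.9%). The 5 week control arrays resembled each other most (mean pairwise r 0.998, against 0.993 to 0.995 in the other groups). Centring each array on the median of its tested probe sets moved the median difference of these probe sets from -0.04 to 0.12 at 1 week. At 5 weeks it moved from -0.02 to 0.13. The share of calls that were higher went from 39.1% to 60.9% and from 40.5% to 67.1%; quantile normalization gave 47.6% and 51.5%.

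**Figure D1:**
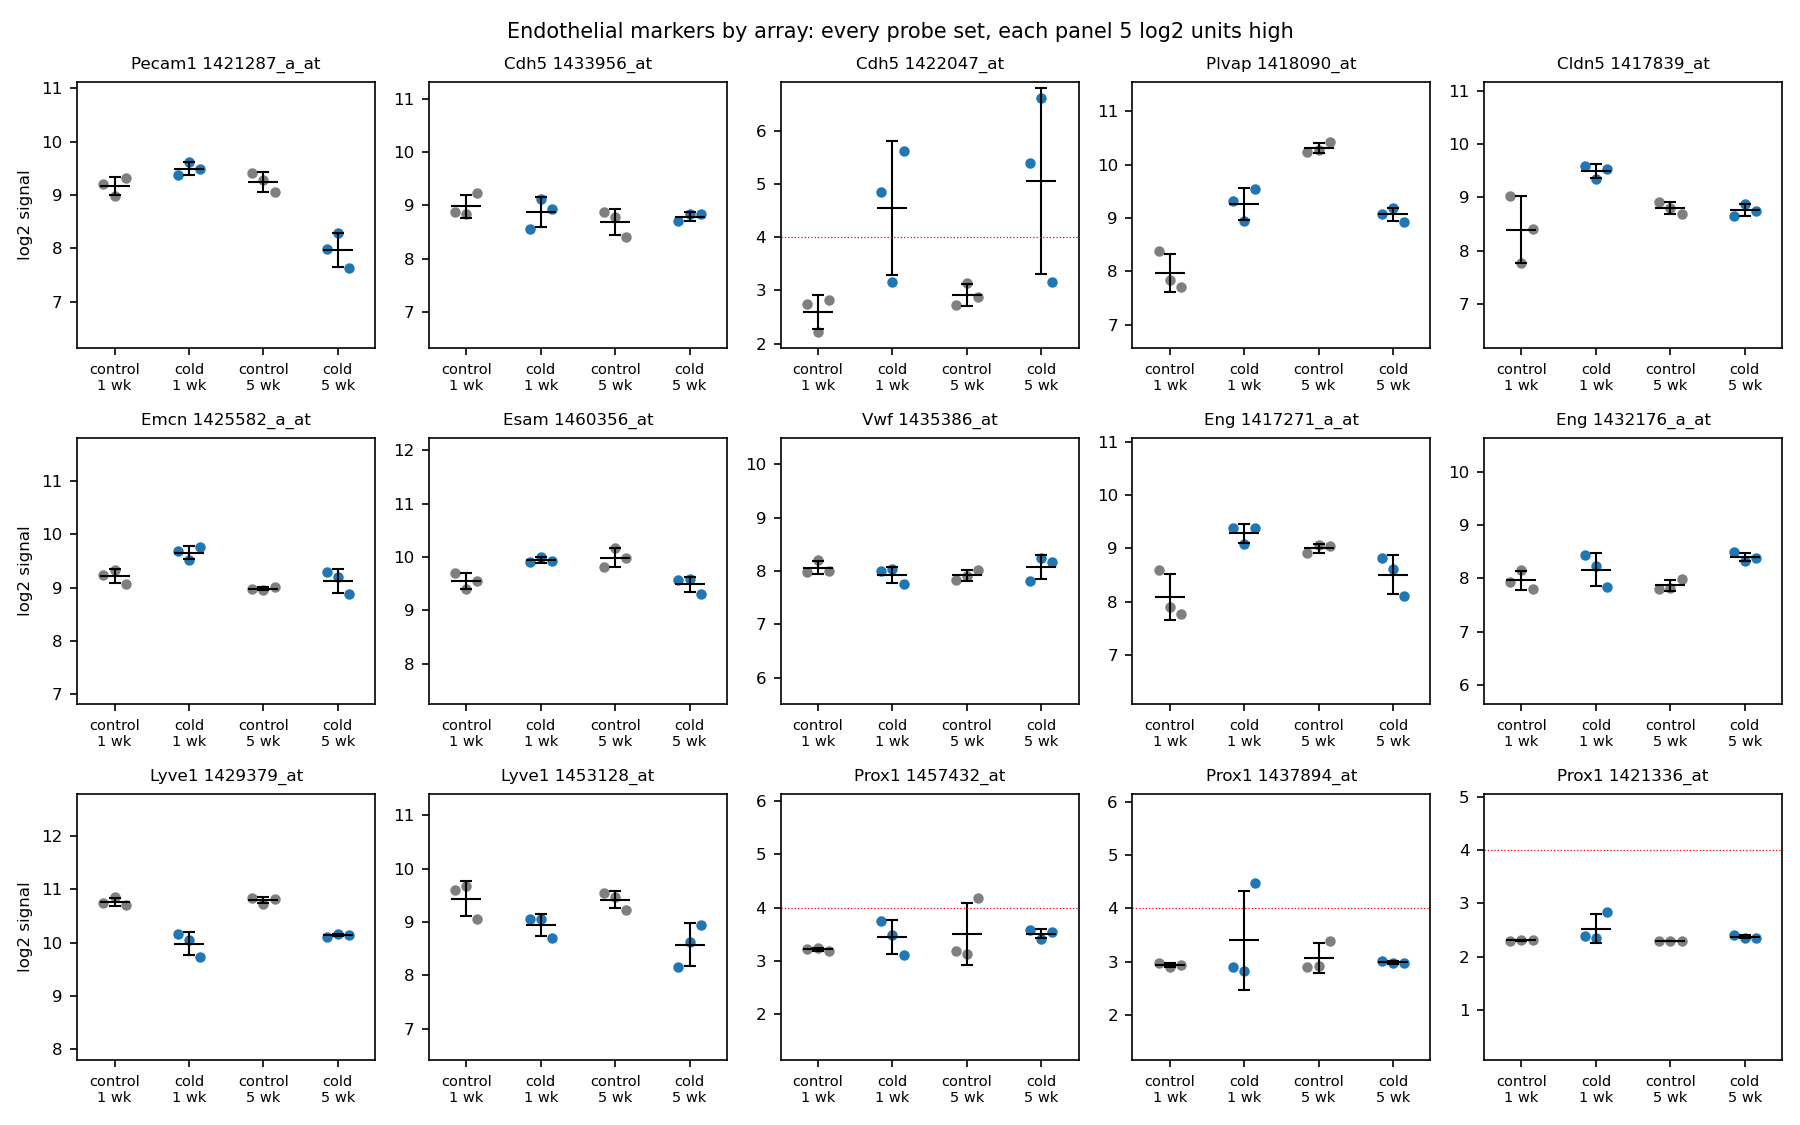
Log2 signal (y axis) of all 15 endothelial probe sets, 1 panel each, with the 4 groups along the x axis, a point for each array, and the group mean with its SD as black bars; the dotted red line is log2 4. Plvap is low on the 1 week controls (7.70 to 8.38) and high on the 5 week controls (10.24 to 10.42), Pecam1 is low on the 5 week cold arrays only (7.63 to 8.28), and Lyve1 is lower in both cold groups.

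Plvap encodes the protein of the diaphragms that span fenestrae and caveolae in capillary endothelium. Its signal was 8.38, 7.84 and 7.70 on the 1 week controls and 9.31, 8.93 and 9.54 on the 1 week cold arrays. On the 5 week arrays it was 10.24, 10.28 and 10.42 in controls and 9.08, 9.18 and 8.93 in the cold. The groups did not overlap at either duration. The cold arrays of both durations lay in 1 range, and the controls lay below it at 1 week and above it at 5 weeks. Plvap rose 2.44-fold at 1 week (log2 difference 1.29, SE 0.19, limma adjusted p = 3.36e-04). It fell at 5 weeks by 2.37-fold (-1.25, SE 0.19, limma adjusted p = 6.57e-04).

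The 5 week controls exceeded the 1 week controls in Plvap by 5.06-fold (log2 2.34, SE 0.19, limma adjusted p = 1.70e-04). Only 65 of the 26510 probe sets were at least as far apart between the controls, or 0.245%, and 3.33% of all probe sets were called there (2.12% higher). Plvap was the 1 endothelial probe set of 12 called between the controls, and between the cold groups it differed by -0.20 (SE 0.19, limma adjusted p = 0.457, 95% interval -0.61 to 0.21). The muscle list was also higher in the 5 week controls. Their Gapdh difference was lower, at -0.08 to 0.03 against 0.90 to 3.12 in the 1 week controls. Muscle, RNA quality and duration cannot be told apart between the controls. On the muscle-rich cold array of 1 week, Plvap was 8.93, the lowest of its group. With the muscle mean as a covariate the cold differences of Plvap were 1.43 at 1 week and -1.58 at 5 weeks, both called. The muscle mean was 7.87 to 8.10 in the 5 week controls and 4.97 to 5.15 in the 5 week cold. Muscle and cold therefore cannot be told apart there, and the part of muscle in the Plvap result was not settled by this fit.

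Pecam1, or CD31, is an adhesion molecule of endothelial junctions that platelets and many leukocytes also carry. Its signal was 9.20, 8.99 and 9.32 in the 1 week controls and 9.37, 9.63 and 9.49 in the 1 week cold. It was 9.41, 9.28 and 9.05 in the 5 week controls and 7.98, 8.28 and 7.63 in the 5 week cold. The 5 week cold group stood below the 9 other arrays. The 5 week fall was 2.43-fold (-1.28, SE 0.16, limma adjusted p = 2.65e-04). At 1 week the difference was 0.33 (SE 0.16, limma adjusted p = 0.126), although the groups did not overlap. It was called when arrays were centred (0.49, limma adjusted p = 0.0275) or quantile normalized (0.46, limma adjusted p = 0.0402). These were the 2 calls among 19 alternative fits, whose values ran from 0.05 to 0.49. Centring also moved the median of all tested probe sets at 1 week, from -0.04 to 0.12.

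The 5 week cold arrays are also those with the highest Actb 3′ minus 5′ difference. With that difference as a covariate the Pecam1 value at 5 weeks was -0.55 (limma adjusted p = 0.216) and the Plvap value -0.95 (limma adjusted p = 0.205), so that neither call held. With the Gapdh difference as the covariate they were -1.11 and -0.99, both called. At 5 weeks every cold array exceeded every control array in the Actb difference. The same held for the Gapdh difference, at 0.19 to 3.01 in the cold against -0.08 to 0.03 in controls. With either covariate, RNA quality and cold cannot be told apart there. The macrophage and lymphocyte lists given with Lyve1 below were also lower in the 5 week cold arrays, and their part in the Pecam1 result was not tested.

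Cdh5 encodes VE-cadherin, the cadherin of endothelial adherens junctions. Its brighter probe set, 1433956_at, gave 8.88, 8.83 and 9.23 in the 1 week controls, 8.56, 9.11 and 8.94 in the 1 week cold, 8.86, 8.79 and 8.41 in the 5 week controls, and 8.70, 8.83 and 8.83 in the 5 week cold. The groups overlapped at both durations. The differences were -0.11 (95% interval -0.48 to 0.26, limma adjusted p = 0.619) and 0.10 (95% interval -0.27 to 0.47, limma adjusted p = 0.689). The intervals leave out changes as large as those of Plvap or of Pecam1 at 5 weeks.

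The dim probe set of Cdh5, 1422047_at, lay below log2 4 on all 6 control arrays. In the cold it gave 4.85, 3.16 and 5.62 at 1 week and 5.38, 6.62 and 3.16 at 5 weeks, so that 2 of 3 arrays exceeded log2 4 each time. With values below 4 set to 4, the cold mean was at least 1.77-fold higher at 1 week and at least 2.52-fold higher at 5 weeks. Neither difference was called (limma adjusted p = 0.0608 and 0.0566). It was called without cold array 2 of 1 week (at least 2.36-fold) and without cold array 3 of 5 weeks (at least 4.00-fold), and at 5 weeks with the Actb covariate. Each array left out there was the cold array of its group below log2 4, so the difference had to grow. Of 17 alternative fits, 5 called this probe set at 1 week and 5 at 5 weeks. No exact difference is given, since all its controls lay below log2 4. Averaged over both probe sets, Cdh5 was called at 5 weeks (1.12, limma adjusted p = 0.0389) and not at 1 week (0.92, limma adjusted p = 0.0658), but that average takes in these values below log2 4. The 2 probe sets of Cdh5 correlated at r = -0.15 over the 12 arrays.

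Cldn5 encodes claudin-5, a tight junction protein. It was 9.02, 7.76 and 8.40 in the 1 week controls and 9.58, 9.34 and 9.54 in the 1 week cold. In the 5 week groups it was 8.90, 8.80 and 8.69 in controls and 8.65, 8.87 and 8.73 in the cold. The 1 week controls were the most spread of the 4 groups and all lay below their cold arrays, while the 5 week groups overlapped. The rise at 1 week was 2.14-fold (1.09, SE 0.24, limma adjusted p = 0.00406), and the 5 week difference was -0.05 (95% interval -0.58 to 0.49, limma adjusted p = 0.903).

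Esam encodes an adhesion molecule of endothelial tight junctions, also present on platelets. It was 9.69, 9.40 and 9.55 in the 1 week controls and 9.91, 10 and 9.92 in the 1 week cold, then 9.82, 10.17 and 9.98 in the 5 week controls and 9.56, 9.58 and 9.31 in the 5 week cold. Neither pair of groups overlapped, and the order turned between the durations. Esam rose by 0.40 at 1 week (SE 0.12, limma adjusted p = 0.0181) and fell by 0.50 at 5 weeks (SE 0.12, limma adjusted p = 0.00783). Without control array 2 of 1 week the first was 0.32 and not called (limma adjusted p = 0.0730). The 5 week call was lost with the Actb covariate (-0.20, limma adjusted p = 0.661) and with the muscle covariate (-0.44, limma adjusted p = 0.109).

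Emcn encodes endomucin, a sialoglycoprotein of capillary and venous endothelium. It was 9.23, 9.33 and 9.07 in the 1 week controls and 9.68, 9.52 and 9.76 in the 1 week cold, without overlap. At 5 weeks it was 8.98, 8.95 and 9.01 in controls and 9.30, 9.20 and 8.88 in the cold, with overlap. It rose by 0.44 at 1 week (SE 0.12, limma adjusted p = 0.0120). The 5 week difference of 0.15 was not called (95% interval -0.12 to 0.41, limma adjusted p = 0.388).

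Eng encodes endoglin, a co-receptor for ligands of the TGF-beta family on endothelial cells. Its probe set 1417271_a_at gave 8.59, 7.90 and 7.77 in the 1 week controls and 9.38, 9.07 and 9.38 in the 1 week cold, then 8.91, 9.06 and 9.04 in the 5 week controls and 8.82, 8.60 and 8.10 in the 5 week cold. The groups did not overlap at either duration, with cold above control at 1 week and below it at 5 weeks. The 1 week rise was 2.29-fold (1.19, SE 0.22, limma adjusted p = 0.00153). The 5 week difference was -0.49 (SE 0.22, limma adjusted p = 0.116) and not called.

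The other Eng probe set, 1432176_a_at, went its own way. It gave 7.93, 8.16 and 7.80 in the 1 week controls, 8.44, 8.23 and 7.83 in the 1 week cold, 7.80, 7.82 and 7.99 in the 5 week controls, and 8.49, 8.33 and 8.38 in the 5 week cold. At 1 week the groups overlapped (0.20, SE 0.15, limma adjusted p = 0.284), and without cold array 3 the difference was 0.37 and called. At 5 weeks it rose by 0.53 (SE 0.15, limma adjusted p = 0.0196). That call was lost without control array 1 (0.50), control array 2 (0.51) or cold array 1 (0.49) of 5 weeks. Over the 12 arrays the 2 Eng probe sets correlated at r = 0.00, so they did not track each other. Averaged, they gave 0.70 at 1 week, called, and 0.02 at 5 weeks, not called.

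Vwf encodes von Willebrand factor, the clotting protein that endothelial cells and platelets store. It was 7.99, 8.20 and 8.00 in the 1 week controls, 7.99, 8.04 and 7.76 in the 1 week cold, 7.82, 7.91 and 8.01 in the 5 week controls, and 7.81, 8.25 and 8.16 in the 5 week cold. All groups overlapped. The cold differences were -0.13 (95% interval -0.41 to 0.15, limma adjusted p = 0.421) and 0.16 (95% interval -0.12 to 0.44, limma adjusted p = 0.374). Of 11 listed platelet and megakaryocyte genes 4 were bright enough to test, and 0 rose and 1 fell at each duration. Among all genes 17.1% rose and 30.5% fell at 1 week, and 13.9% rose and 19.9% fell at 5 weeks. So few platelet genes do not separate from these shares.

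**Figure D2:**
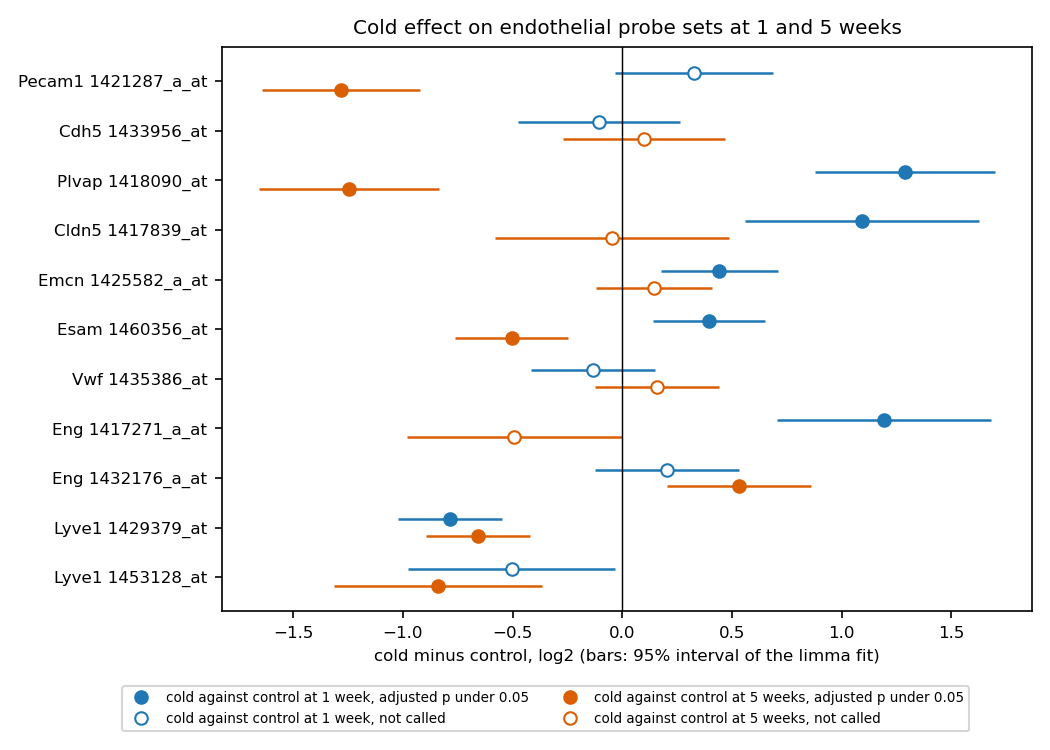
Cold minus control log2 difference (x axis) for each tested endothelial probe set except 1422047_at of Cdh5, whose controls all lay below log2 4, at 1 week and at 5 weeks, with the 95% interval of the limma fit as a line and filled points for adjusted p under 0.05. Plvap lies at 1.29 and -1.25, Esam at 0.40 and -0.50, and both probe sets of Lyve1 lie below 0 at both durations.

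At 1 week every control array exceeded every cold array in the Gapdh difference, at 0.90 to 3.12 against -0.08 to 0.34. RNA quality and cold therefore cannot be told apart there either. Control arrays 2 and 3 of 1 week had the highest values. Without those 2 arrays, in a fit of fewer arrays, the differences were 0.89 for Plvap, still called, 0.69 for Eng (limma adjusted p = 0.0908), 0.47 for Cldn5 (adjusted p = 0.0614), 0.42 for Emcn (adjusted p = 0.124) and 0.25 for Esam (adjusted p = 0.313). With the Gapdh difference as a covariate they were 0.87 for Plvap and 0.56 for Eng, both called, and 0.64 for Cldn5 (limma adjusted p = 0.164), 0.23 for Emcn (adjusted p = 0.311) and 0.18 for Esam (adjusted p = 0.413). Plvap was therefore the blood marker whose 1 week rise was called in each of these fits. Control array 1 had the lowest Gapdh difference of these controls, though above all 1 week cold arrays. On it Cldn5 was 9.02, Eng (1417271_a_at) 8.59, Plvap 8.38 and Esam 9.69, each the highest value of its group. Emcn, at 9.23, was not the highest.

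Whether the cold effect differed between 5 weeks and 1 week was tested directly, as the difference of the 2 differences. It was lower at 5 weeks for 5 of 10 blood probe sets and higher for 0, where 9.47% of all probe sets were lower and 10.2% higher. The values were -2.54 for Plvap (SE 0.26, limma adjusted p = 0.00159), -1.69 for Eng 1417271_a_at (SE 0.31, limma adjusted p = 0.00757), -1.61 for Pecam1 (SE 0.23, limma adjusted p = 0.00414), -1.14 for Cldn5 (SE 0.34, limma adjusted p = 0.0401) and -0.90 for Esam (SE 0.17, limma adjusted p = 0.00730). Emcn (-0.30), Vwf (0.29), Eng 1432176_a_at (0.33), Cdh5 1433956_at (0.21) and both probe sets of Lyve1 (0.13 and -0.34) were not called, nor was Cdh5 1422047_at. The Cldn5 call was lost when any 1 of 9 arrays was left out. In limma fits with the Gapdh or the Actb difference as a covariate 0 of 12 were called (5 and 4 at an unadjusted p under 0.05). The share of all probe sets called in those fits is not given. A general loss of calls therefore cannot be told apart from a loss in the panel.

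The cold groups themselves differed in 5 of 10 blood probe sets, all lower at 5 weeks, where 12.8% of all probe sets were lower and 15.6% higher. Pecam1 fell by 1.53 (SE 0.16, limma adjusted p = 3.76e-04), Emcn by 0.53 (SE 0.12, limma adjusted p = 0.00897) and Esam by 0.46 (SE 0.12, limma adjusted p = 0.0149). Eng 1417271_a_at fell by 0.77 (SE 0.22, limma adjusted p = 0.0251) and Cldn5 by 0.74 (SE 0.24, limma adjusted p = 0.0425). The Cldn5 call was lost without any 1 of the 6 cold arrays, that of Eng without cold array 1 or 3 of 1 week or array 3 of 5 weeks, and that of Esam without array 3 of 5 weeks. This order differs from that of the cold differences, because Plvap and, by values that were not called, Eng (0.91, limma adjusted p = 0.0519) and Esam (0.44, limma adjusted p = 0.0696) were higher in the 5 week than in the 1 week controls.

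**Figure D3:**
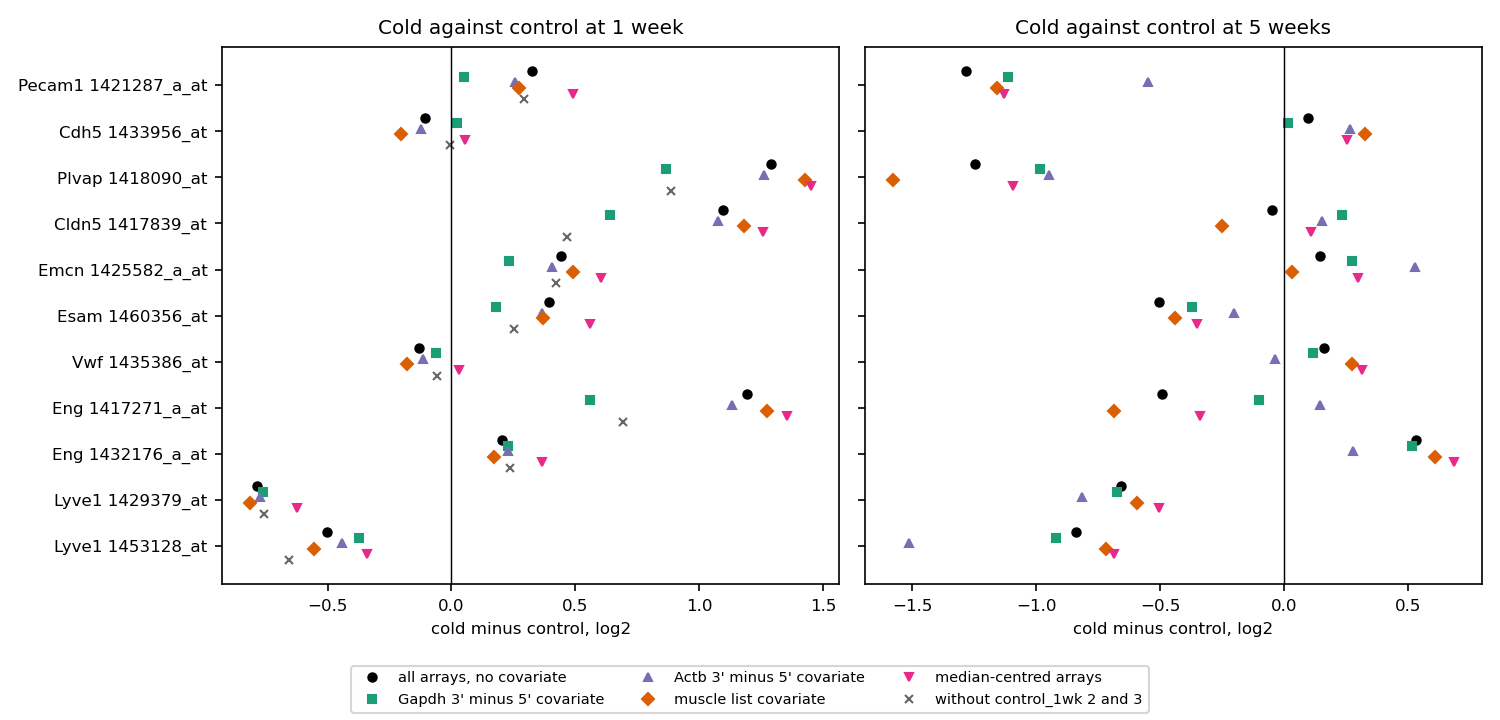
Cold minus control log2 difference (x axis) of the same endothelial probe sets, again without 1422047_at of Cdh5, at 1 week (left) and 5 weeks (right) as reported and under other settings, including RNA quality and muscle covariates and arrays left out. Lyve1 1429379_at stays below 0 and Plvap stays on its side of 0 under the plotted settings, while Esam moves towards 0 with the Gapdh covariate at 1 week (0.18) and the Actb covariate at 5 weeks (-0.20).

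Lyve1, the hyaluronan receptor of lymphatic endothelium, gave 10.74, 10.86 and 10.71 on probe set 1429379_at in the 1 week controls and 10.17, 10.05 and 9.74 in the 1 week cold. In the 5 week groups it gave 10.83, 10.73 and 10.82 in controls and 10.11, 10.16 and 10.14 in the cold. The 6 control arrays all lay above the 6 cold arrays, where 29.9% of all probe sets were lower without overlap at 1 week and 28.5% at 5 weeks. Lyve1 fell 1.72-fold at 1 week (-0.79, SE 0.11, limma adjusted p = 2.41e-04) and 1.58-fold at 5 weeks (-0.66, SE 0.11, limma adjusted p = 0.00109).

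The dimmer probe set 1453128_at gave 9.59, 9.67 and 9.06 in the 1 week controls and 9.06, 9.05 and 8.70 in the 1 week cold, then 9.54, 9.48 and 9.23 in the 5 week controls and 8.15, 8.63 and 8.95 in the 5 week cold. At 1 week its lowest control array, 3, was level with the highest cold array, 1, at 2 decimals. The 1 week difference of -0.50 was not called (SE 0.21, limma adjusted p = 0.0770), and without control array 3 it was -0.69 and called. At 5 weeks it fell by 0.84 (SE 0.21, limma adjusted p = 0.0128). The 2 probe sets correlated at r = 0.77 over the 12 arrays.

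The 1 week value of Lyve1 on 1429379_at was called in each fit tried, including -0.76 without control arrays 2 and 3 and -0.76 with the Gapdh covariate. At 5 weeks it was -0.81 and not called with the Actb covariate (limma adjusted p = 0.0752), the 1 fit tried in which that call was lost. Macrophage genes moved with Lyve1. Of 16 macrophage markers 12 fell and 0 rose at 1 week, and 13 fell and 0 rose at 5 weeks, where 30.5% and 19.9% of all genes fell. The mean of the list was 10.02 to 10.13 in the 1 week controls against 9.45 to 9.62 in the 1 week cold, and 10.22 to 10.27 against 9.21 to 9.43 at 5 weeks. Timd4 and Folr2, of tissue-resident macrophages that can carry LYVE1, were among them at -1.09 and -0.91 at 1 week and -1.56 and -1.85 at 5 weeks. The part of macrophages in the Lyve1 result was not tested. Of 14 lymphocyte genes 14 fell at 1 week and 13 at 5 weeks, beside the same 30.5% and 19.9%.

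Prox1, the transcription factor that specifies lymphatic endothelium, gave no such view. Over 3 probe sets and 12 arrays its signal ran from 2.29 to 4.48, and 2 of 36 values exceeded log2 4. These were 4.18 on 1457432_at for control array 3 of 5 weeks and 4.48 on 1437894_at for cold array 3 of 1 week. On 1457432_at the other control values were 3.14 to 3.25 and the cold values 3.11 to 3.76. Lyve1 is thus the 1 lymphatic marker of the panel with a testable signal.

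A wider list of 50 blood endothelial genes, of which 47 were tested on their brightest probe set, went in both directions. At 1 week 7 rose and 12 fell (17.1% and 30.5% of all genes), with a median of -0.06. The balance turned with the scaling and the probe set summary: with arrays centred 12 rose and 9 fell, and with the probe sets of a gene averaged 13 rose and 9 fell. Centring turned the balance of all probe sets as well, from 39.1% to 60.9% of calls higher, so that turn is not particular to this list. The share over all genes with probe sets averaged is not given. The rises with the smallest adjusted p were Sema3g (0.42, SE 0.07), a semaphorin of arterial endothelium, Gpihbp1 (1.73, SE 0.31), which holds lipoprotein lipase on the capillary wall, Apln (0.82, SE 0.20), the ligand of the apelin receptor, and Adgrl4 (0.58, SE 0.16), an adhesion receptor. On the 1 week controls Gpihbp1 was 10.19, 8.78 and 8.74 and Apln 7.91, 7.10 and 7.05, lower on the 2 arrays with the high Gapdh difference. Over the alternative fits the lowest values were 0.78 for Gpihbp1, 0.26 for Apln, 0.38 for Sema3g and 0.42 for Adgrl4. The falls were Vcam1 (-1.02, SE 0.12) and Icam1 (-0.99, SE 0.12), which bind leukocytes, Calcrl (-0.86, SE 0.13), the adrenomedullin receptor, and Tek (-0.72, SE 0.13), the angiopoietin receptor. The other probe sets of Vcam1 gave -0.25 and -0.15 and that of Adgrl4 gave 0.14, none of them called. Kdr, the main VEGF receptor, was at 0.03 and was named after its value was seen.

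At 5 weeks 8 of the 47 rose and 11 fell (13.9% and 19.9% of all genes), with a median of -0.14, and with arrays centred 8 rose and 6 fell. Among all probe sets, centring moved the share of calls that were higher from 40.5% to 67.1%. The rises were Flt1 (0.88, SE 0.14), a VEGF receptor, Sox7 (0.76, SE 0.13), a transcription factor of endothelium, Ptprb (0.60, SE 0.11), a phosphatase of the TIE2 complex, and Sema3g (0.32, SE 0.07). The falls were Vcam1 (-1.18, SE 0.12), S1pr1 (-0.78, SE 0.10), the sphingosine-1-phosphate receptor, Egfl7 (-0.65, SE 0.11), a secreted endothelial factor, and Icam1 (-0.61, SE 0.12). Both other probe sets of Vcam1 also fell (-0.79 and -1.01). Other probe sets gave 0.68, called, and 0.11 and 0.10, not called, for Flt1, and 0.03 for Ptprb. For Egfl7 they gave -0.30 and -0.63, both called, and -0.13, not called. With the Actb covariate 1 of the 47 was called at 5 weeks, and with the Gapdh covariate 7 at 1 week. The shares of all genes called in those fits are not given.

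Of 18 wider lymphatic genes 15 were tested. At 1 week 8 fell and 2 rose, beside 30.5% lower and 17.1% higher among all genes, with a median of -0.54 against -0.08 for all genes. The falls with the smallest adjusted p were Pdpn (-0.81, SE 0.12), podoplanin, Vegfd (-0.77, SE 0.14), a lymphangiogenic growth factor made by stromal cells, Stab2 (-0.75, SE 0.15), a scavenger receptor, and Mmrn1 (-1.01, SE 0.21), multimerin. Vegfd fell on its 2 other probe sets too (-1.11 and -0.62). The 2 called higher were Itga9 (0.35, SE 0.12), an integrin subunit, and Tbx1, a transcription factor. Tbx1 lay below log2 4 on the 9 other arrays and passed the filter only through the 1 week cold arrays, so it had to differ, and with values below 4 set to 4 it was at least 1.30-fold higher. With the Gapdh covariate 3 of the 15 were called at 1 week. The share of all genes called in that fit is not given, so a general loss of calls cannot be told apart from a loss in this list.

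At 5 weeks 1 of the 15 fell, Stab2 (-0.74, SE 0.15), and 2 rose, the chemokine receptor Ackr4 (2.18, SE 0.37) and Itga9 (0.39, SE 0.12), beside 19.9% lower and 13.9% higher among all genes. The other probe set of Ackr4 had all its 5 week controls below log2 4, and its cold mean exceeded that level by at least 2.11-fold. The median was 0.06, against -0.03 for all genes. Mmrn1 was at 0.09 and Pdpn at -0.33, neither called, and the difference of the cold effects was called for Mmrn1 (1.10, limma adjusted p = 0.0262). Flt4, the VEGF receptor of lymphatic vessels, was at -0.04 and -0.10 and was named after its values were seen. Its other probe set, below log2 4 on all 6 controls, was not called (limma adjusted p = 0.0881 and 0.604). Lyve1 fell at 5 weeks, and 12 of these 15 genes were not called. Most of all genes were not called there either, so this count does not set Lyve1 apart from the list.

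**Figure D4:**
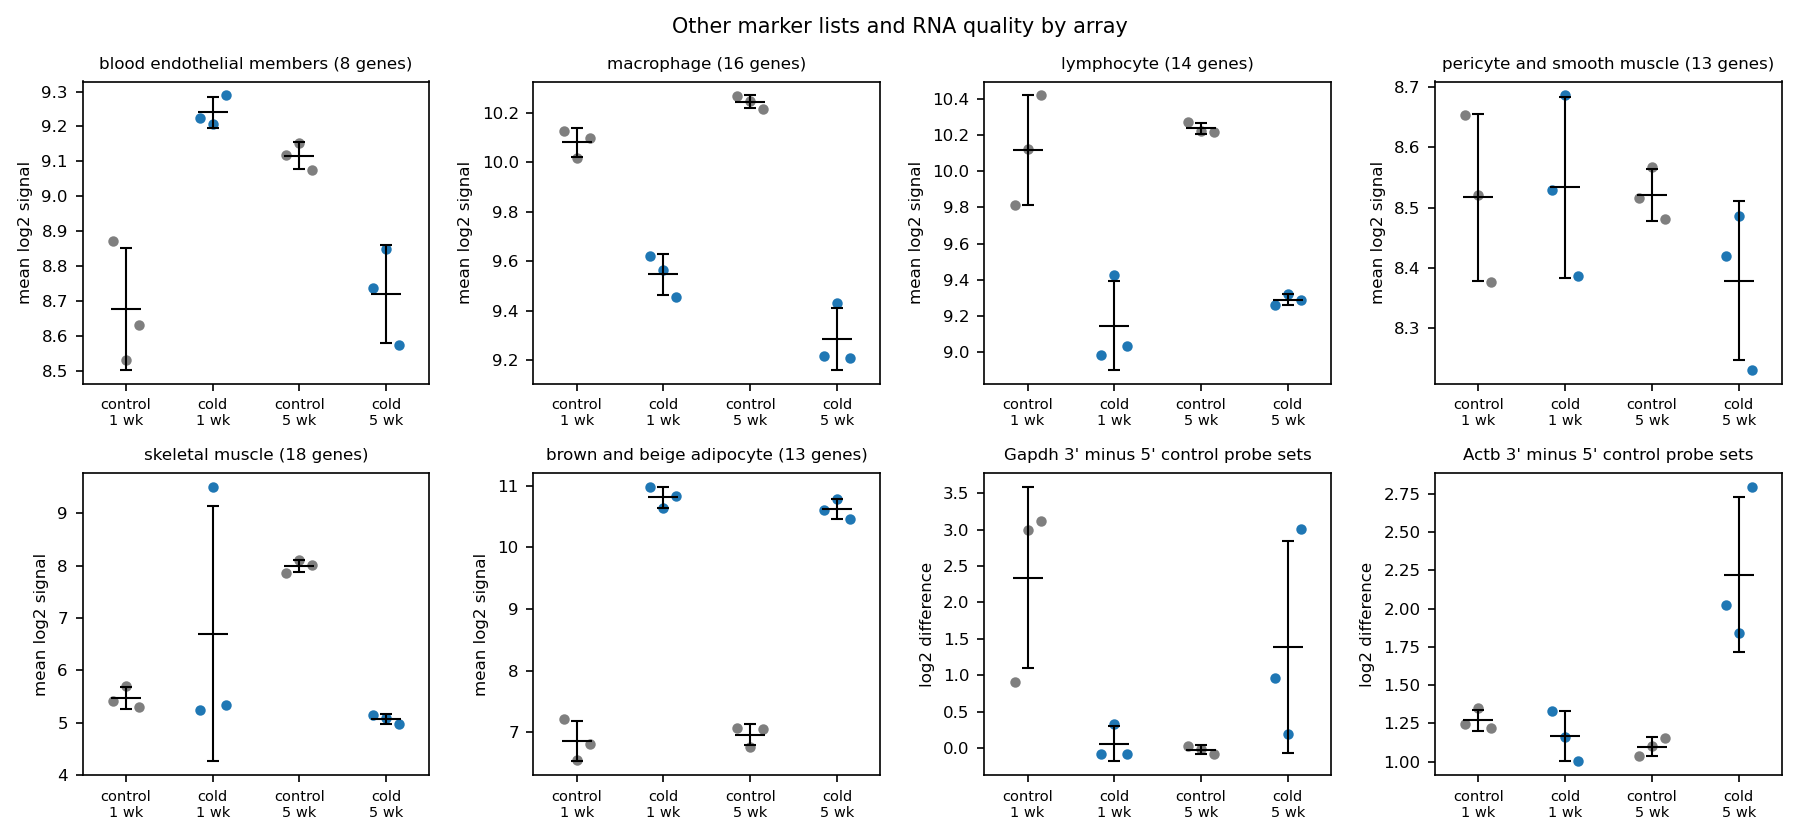
Mean log2 signal of marker lists and the Gapdh and Actb 3′ minus 5′ differences (y axes) on each of the 12 arrays, grouped along the x axis, with a point for each array and the group mean and SD as black bars; the y ranges differ between panels. The macrophage list is lower in both cold groups, the muscle list is high on the 5 week controls and on cold array 2 of 1 week (9.51), and the Actb difference is highest on the 5 week cold arrays.

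Among the members, arrays of the same group also varied. After the group means were removed, Plvap and Eng 1417271_a_at correlated at r = 0.82 over the 12 arrays (0.74 with the group means kept), and Pecam1 and Plvap at r = -0.02. These are descriptions, since the points share arrays and RNA quality. Over all 12 arrays the genes most like Pecam1 were Bnip2 (r = 0.992), Banf1 (0.984), Serpinh1 (0.974), Czib (0.969) and Fis1 (0.967). Those most like Plvap were Nsmf (0.941), Osr1 (0.938), Sdc4 (0.899), Rab10 (0.898) and Impdh1 (0.891), and those most like Lyve1 were Asb13 (0.980), Tubb2b (0.978), Ccl11 (0.976), Nnat (0.975) and Snhg11 (0.975). Cdh5 1433956_at had the weakest likeness of the 4 genes examined, to Zhx2 (0.842), 2610507I01Rik (0.820), Nt5c3 (0.811), Tifab (0.786) and Med19 (0.782). No other member of the panel was among the genes most like these 4.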

How the data were processed

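Total RNA of white adipose tissue (5 µg a sample, Trizol) was amplified, labelled with biotin and hybridised to Affymetrix arrays, per the labels' protocols. The authors deposited 1 table of log2 signals, made with GCRMA per the submitters' processing notes, of a version not given in the sources used. Of 45101 probe sets, 34945 named 1 gene, 932 several and 9160 none, and 64 were controls; symbols were updated through gene identifiers (34741). No probe set with several genes listed a panel gene.

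lmFit and eBayes (limma 3.58.1, R 4.3.3) fitted 4 group means over all 12 arrays and 26510 probe sets, with 2-sided tests and Benjamini-Hochberg adjustment within each contrast; the code was tested on simulated data. The number of arrays limits the precision. Panel, gene lists and tests were chosen with earlier results of these data known. Every panel probe set is reported. From the wider lists, the up to 4 called genes a direction with the smallest adjusted p are named, on the brightest probe set, and for Pecam1, Cdh5, Plvap and Lyve1 the 5 genes with the highest r. Same-numbered arrays did not deviate together (r from -0.09 to 0.08), so the replicate numbers were not treated as pairs. Alternatives changed the filter, scaling, probe set summary, covariates, arrays fitted and variance trend; leaving out control arrays 2 and 3 of 1 week, averaging the 5 week controls to 1 array (no label says that they share an animal) and applying the settings to the wider lists were chosen after seeing the data.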

Additional observations from a re-analysis of the deposited data

Results flagged for a closer look

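For 5 blood endothelial probe sets the cold effect differed between 5 weeks and 1 week by a direct test (limma, adjusted p given above with n = 3 arrays a group). The difference, on the log2 scale, was -2.54 for Plvap, -1.69 for Eng (1417271_a_at), -1.61 for Pecam1, -1.14 for Cldn5 and -0.90 for Esam. Plvap and Esam were called in opposite directions at the 2 durations. Pecam1 was called at 5 weeks only, and Cldn5 and Eng at 1 week only. The part of the arrays with high Gapdh or Actb 3′ minus 5′ differences in these values was not settled by the fits tried, since 0 of the 5 were called with either as a covariate, while without control arrays 2 and 3 of 1 week Plvap (-2.13) and Pecam1 (-1.58) were called.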

How the results depend on the processing

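Endothelial probe sets called numbered 6 at 1 week (range 5 to 7 when 1 array was left out), 6 at 5 weeks (5 to 7), 5 for the difference of the cold effects (4 to 5), 1 between the controls (1 to 4, with 4 without control array 1 of 1 week, which added Eng, Cldn5 and Esam) and 5 between the cold groups (2 to 4). Wider blood genes called numbered 19 at each duration (16 to 18 at 1 week; 12 to 16 at 5 weeks, with 12 without control array 1), and wider lymphatic genes 10 (8 to 11) and 3 (2 to 4).

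With the Gapdh covariate the counts were 3 at 1 week, 0 for the difference, 1 between the cold groups, and 7 wider blood and 3 wider lymphatic genes at 1 week. With the Actb covariate they were 1 at 5 weeks (1422047_at of Cdh5, whose controls lay below log2 4), 0 for the difference, 0 between the cold groups (limma; 3 at an unadjusted p under 0.05), and 1 wider blood and 0 wider lymphatic genes at 5 weeks (2 unadjusted). With the muscle covariate they were 3 at 5 weeks, 3 for the difference and 9 wider blood genes at 5 weeks. Without control arrays 2 and 3 of 1 week they were 2 at 1 week, 2 for the difference, and 6 wider blood and 1 wider lymphatic genes; fewer arrays entered that fit, and the spread of the lone control array was taken from the other groups. A fit that averaged the 5 week controls to 1 array left the 5 week group means as they were and called fewer at 5 weeks and for the difference. The spread of that 1 array was taken from the other groups. No label says whether these arrays share an animal, so what its lost calls mean was not settled. With no filter 3 were called between the cold groups, and with a filter of log2 5 on 6 arrays, or a variance trend, 2 were called between the controls. Where a construction does not show the cause, the cause was not tested. The shares of all probe sets called in these fits are not given. A general loss of calls therefore cannot be told apart from a loss among endothelial genes.

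With the replicate number as a block the counts were again 6 at 1 week and 6 at 5 weeks, and no panel call changed; of the wider genes named, Itga9 was not called (0.35 at 1 week, limma adjusted p = 0.0623, and 0.39 at 5 weeks, limma adjusted p = 0.0607). When the Eng probe sets were averaged, the difference of the cold effects was -0.68 (limma adjusted p = 0.0381) against 0.33 for 1432176_a_at alone, since the average takes in the other probe set.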
